A study of Rattus norvegicus with 6 samples.

Results

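Integrins, laminins and collagens are the receptors and the building blocks of the contact between a cell and its extracellular matrix. Their genes were taken from the expression table by symbol: integrin alpha chains with a numbered name and alpha-v, numbered integrin beta chains, Itgbl1, laminin chains, and collagen chains. This gave 54 of 17066 genes, comprising 8 integrin alpha chains, 7 integrin beta chains, Itgbl1, 3 proteins named for binding an integrin tail, 8 laminin chains and 27 collagen chains. No measured value entered the symbol rule itself, but it was chosen with earlier results of these data known. All 54 symbols were current RefSeq symbols. The chains Itgav, Col4a2 and Lamb1, partners of several genes described here, matched no row and were not analysed here.

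An integrin is a pair of an alpha and a beta chain that spans the membrane, binds matrix outside the cell and couples to the actin cytoskeleton inside it. Laminins are trimers of an alpha, a beta and a gamma chain, and together with type IV collagen they form the sheet of the basement membrane. Collagens are triple helices that assemble into fibrils, networks or, for a few types, membrane-bound trimers. In the hippocampus integrins containing the beta1 chain take part in the adhesion and stability of synapses, and integrin alpha-v beta8 is known for releasing active TGF-beta from its latent complex.

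RNA-seq was done on primary hippocampal neurons of Sprague-Dawley rat embryos at embryonic day 18, which were infected with lentivirus on day 5 or 6 in vitro and lysed on day 14. The EGFP group received virus with EGFP alone, the CCNY-WT group virus with CCNY-WT-EGFP to overexpress cyclin Y, and the CCNY-shRNA group virus with CCNY-shRNA-EGFP to knock it down. Each group had 2 libraries, all 6 carried a lentiviral EGFP construct, and the control virus held no shRNA. The labels do not say whether the 2 libraries came from separate cultures, so the p-values measure the spread between these libraries, which may be technical. Levels are FPKM, fragments per kilobase of transcript, scaled to the mapped fragments of the library. They can be compared between genes because they are per length.

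Ccny itself was 43.1 and 42.3 FPKM in EGFP, 108 and 109 with CCNY-WT, and 5.98 and 6.19 with CCNY-shRNA, in the direction of every label. All 8 neuronal markers were at an FPKM of 1 or more in every library, with a summed level of 4000 to 4210. The 7 astrocyte markers with a row were also above 1 throughout, summing to 535 and 574 with EGFP, 563 to 568 with CCNY-WT and 468 to 540 with CCNY-shRNA, so glial transcripts were present. Of the microglial markers 7 of 8 lay under 1 in every library, with Aif1 and Cx3cr1 at 0, and all 7 endothelial markers with a row lay under 1, with Cldn5 and Cdh5 at 0. Of 8 fibroblast and meningeal markers 4 were at 1 or more in every library, and the sum of the 8 was 70.5 to 79.7 with EGFP, 84.6 to 85.9 with CCNY-WT and 78.8 to 89.7 with CCNY-shRNA. Of these Mgp alone passed the test described below and rose in CCNY-shRNA. It was 4.07 and 5.11 FPKM with EGFP, 8.15 and 8.21 with CCNY-WT, and 14.3 and 21.5 with CCNY-shRNA. The part of Mgp in the results below was not tested. The other markers did not share this rise. Lum was 50.1 and 56.0 with EGFP against 46.0 and 49.0 with CCNY-shRNA, and Dcn 13.2 and 15.0 against 16.1 and 17.0. The median log2 change of the 4 tested in CCNY-shRNA was 0.04. Mural cell markers summed to 3.42 and 5.79 with EGFP, 5.91 and 5.50 with CCNY-WT, and 8.21 and 6.00 with CCNY-shRNA, with Kcnj8 at 0. Most of this was Tagln, at 1.76 and 3.93 with EGFP, 3.84 and 3.98 with CCNY-WT, and 6.68 and 4.39 with CCNY-shRNA. No other marker of the list exceeded 1.04 FPKM in any library. Tagln was the only one tested, and it was not called. Relative to EGFP replicate 1, the depth estimated from the steps of low FPKM values was 0.819 to 1.33.

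The promoters of the only members that passed the test of the knockdown, Itgb8 and Itgbl1, are shown first, from RefSeq on build GRCr8, 250 bases before to 50 bases after the annotated start, 5′ to 3′ on the strand of the gene. Capitals mark matches to a GC box (GGGCGG, or CCGCCC on the other strand) or a CCAAT box (CCAAT, both strands searched). The Itgb8 window is chr6:146351196-146351495 on the minus strand and the Itgbl1 window is chr15:107186542-107186841 on the plus strand.
Itgb8: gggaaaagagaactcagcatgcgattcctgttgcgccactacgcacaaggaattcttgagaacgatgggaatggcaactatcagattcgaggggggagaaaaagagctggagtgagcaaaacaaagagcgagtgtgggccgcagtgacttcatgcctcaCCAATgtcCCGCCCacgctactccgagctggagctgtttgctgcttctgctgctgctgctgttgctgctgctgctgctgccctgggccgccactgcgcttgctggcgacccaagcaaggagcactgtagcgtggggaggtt
Itgbl1: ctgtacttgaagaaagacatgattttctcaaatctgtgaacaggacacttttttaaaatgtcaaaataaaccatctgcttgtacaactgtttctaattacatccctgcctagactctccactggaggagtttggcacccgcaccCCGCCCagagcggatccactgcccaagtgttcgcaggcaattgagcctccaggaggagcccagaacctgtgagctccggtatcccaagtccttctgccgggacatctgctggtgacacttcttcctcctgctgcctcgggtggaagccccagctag
Each window held 1 GC box on the opposite strand, with its nearest base 78 bases upstream of the start in Itgb8 and 101 bases upstream in Itgbl1. The Itgb8 window also held 1 CCAAT box, which does not overlap the GC box. No TATA box (TATAAA), AP-1 site (TGANTCA) or E-box (CACGTG) was found in either window on either strand. A GC box was present in 33.1% of all 33469 promoter windows of this length and a CCAAT box in 37.5%, so neither is unusual. Of the 43 members with a promoter sequence 21 held a GC box. These matches describe letters, not binding.

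The most abundant members were Itgbl1 and Itgb1, followed by Col5a1 and Itga6. Itgbl1, which carries EGF-like repeats related to those of integrin beta chains, averaged 63.2 ± 5.20 FPKM in EGFP (SD, n = 2) and ranked 1774 of all genes. Itgb1, the beta chain shared by most alpha chains present here, averaged 40.1 ± 1.86. Col5a1, a chain of the fibril-regulating type V collagen, averaged 29.7 ± 4.08 and Itga6, which with Itgb1 forms a laminin receptor, 24.2 ± 0.311. Type V collagen was the best represented collagen, with Col5a2 at 13.9 ± 0.124 and Col5a3 at 3.28 ± 0.356. The basement membrane chains Col4a1 and Lamc1 averaged 12.6 ± 0.747 and 11.5 ± 0.358, values that lay close to each other.

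**Figure D1:**
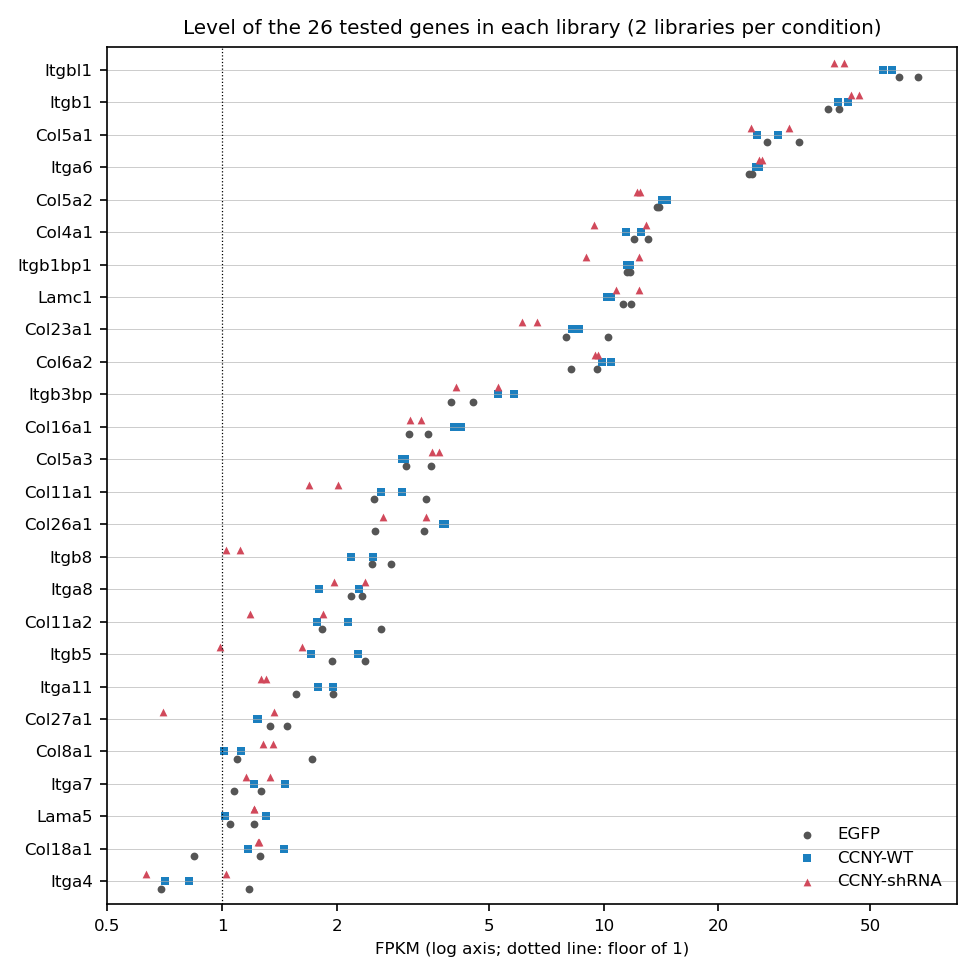
FPKM on a log axis of the 26 tested genes in each of the 6 libraries, ordered by their mean in EGFP. The CCNY-shRNA triangles lie to the left of all other symbols for 7 genes, namely Itgb8, Itgbl1, Itgb5, Itga11, Col11a1, Col23a1 and Col5a2, and for 10 of the 26 genes neither condition separates from EGFP.

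Of the 8 laminin chains with a row, 2 were tested. Other laminin chains, such as Lamb1, had no row, so their level is unknown here. Lamc1, the gamma chain of most laminins, was the only laminin chain with a row above 2 FPKM. The alpha chains Lama5 and Lama1 averaged 1.13 ± 0.113 and 0.883 ± 0.0437 in EGFP. Lama4, Lamb3 and Lamc3 stayed under 1 in every library, and Lamb2 was listed at 0 in all of them. An exact 0 in a table of FPKM can also be a failed estimate, so absence of Lamb2 transcript cannot be inferred. The fibrillar collagens of connective tissue were also low. Col1a1 lay between 0.103 and 0.271 FPKM and Col1a2 between 0.102 and 0.501 over the 6 libraries, while Col3a1 averaged 0.466 ± 0.144 in EGFP. Of the 8 fibroblast and meningeal markers Ogn, Igf2, Slc6a13 and Foxc1 also lay under 1 in every library, while Dcn and Lum reached 13.2 to 17.0 and 46.0 to 59.7 FPKM and Mgp and Twist1 lay above 1.

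The low values of many members resolved into whole numbers of fragments. For 35 of the 54 genes a set of whole numbers of at most 300 matched the FPKM of all libraries within 0.06 of a fragment. Over all genes above 0 in every library with a highest FPKM between 1 and 3, this held for 94.0%, against 0.0831% after a random shift of the libraries. Between 3 and 10 FPKM it held for 44.9%, against 0.411% after the shift, so the numbers of the more abundant Col26a1 are less secure. Col6a2 reached 10.4 FPKM, above the levels for which this share was computed, so its numbers are less secure too. Only the smallest matching set is given here, and the sequenced numbers may be a multiple of it. The 22 members under 1 FPKM for which numbers were found had between 0 and 21 fragments in a library. Col1a1 rested on 4 and 10 fragments in EGFP, 9 and 5 with CCNY-WT, and 5 and 4 with CCNY-shRNA. Such numbers cannot show a difference between conditions, and none of these 22 genes was tested.

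**Figure D2:**
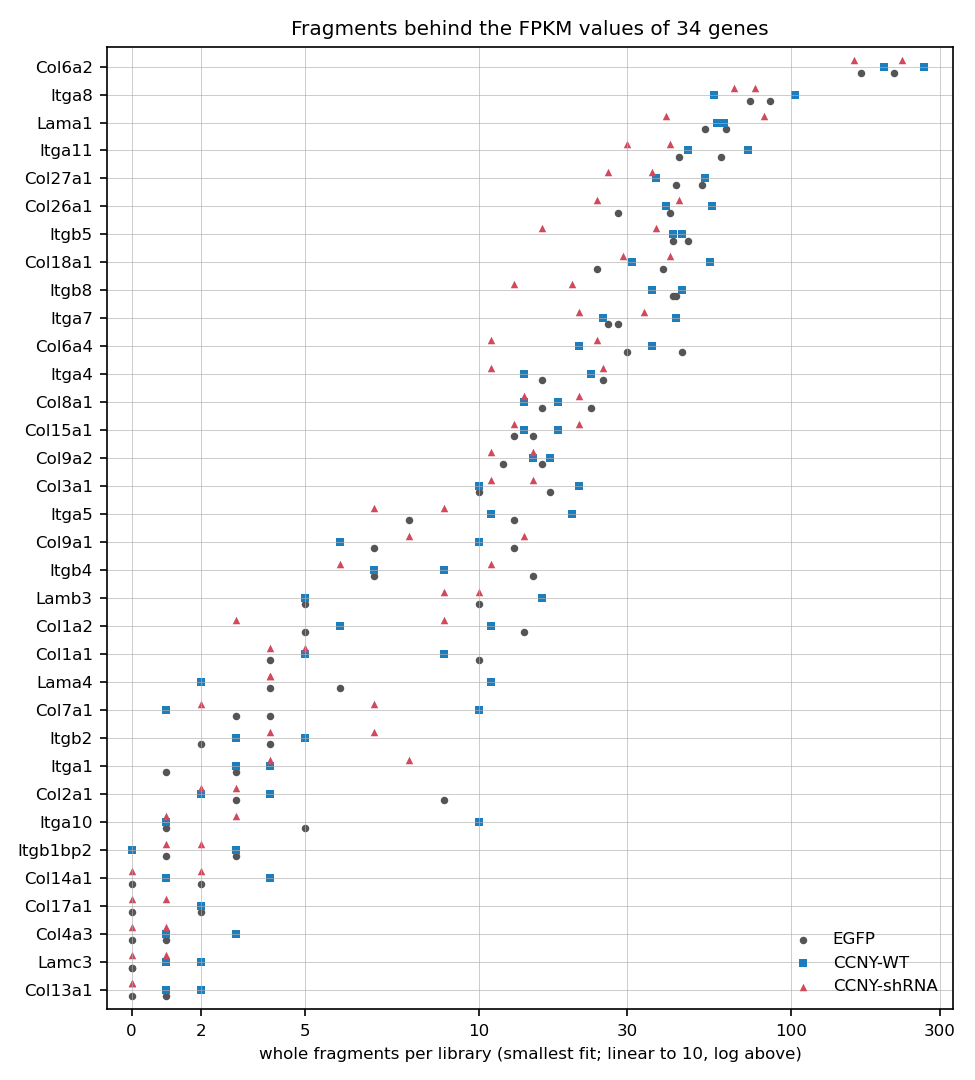
Smallest whole numbers of fragments that fit the FPKM values of 34 genes in each library, on an axis that is linear to 10 and logarithmic above. The genes at the bottom rest on 0 to 4 fragments per library, and Col6a2 at the top on 159 to 268.

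In the CCNY-shRNA libraries 2 of the 26 tested members fell and none rose, among 76 of 10188 genes tested (0.746%) that passed limma's adjusted threshold in either direction. The genes that rose made up 0.167% of all genes tested. Members were tested where at least 2 libraries reached an FPKM of 1. The genes that fell were Itgb8 and Itgbl1, and 0.579% of all genes tested fell. Of the 26 members 16 had a log2 change below 0, against 49.8% of all genes, and the median was -0.08, against 0 over all genes tested. Both CCNY-shRNA libraries lay below both EGFP libraries for 7 members, 26.9% against 24.5% of all genes, and above them for 3 members, against 23.9%. By the size criterion of a fall of at least 0.33 in mean log2 FPKM, which involves no test, 7 members were lower (26.9%, against 7.59% of all genes) and 0 were higher (against 5.52%). At an unadjusted p under 0.05, 5 members were lower (19.2%, against 9.36% of all genes) and 1, Itgb1, was higher (3.85%, against 9.2%). The 7 lower by size were Itgb8, Itgb5, Itgbl1, Itga11, Col11a1, Col11a2 and Col23a1. The study listed Itgb5, Itgb8, Col11a1 and Col11a2 as lower on these same libraries, so their presence here is no independent evidence. The paper also reported qRT-PCR of Itgb5 and Itgb8 and counted both among genes regulated by CCNY. Those qRT-PCR measurements were not analysed here. In these bulk samples fewer cells of a type and less RNA per cell cannot be told apart.

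Itgb8, the beta chain that pairs with alpha-v and binds latent TGF-beta, showed the largest change among the tested members. It was 2.62 ± 0.205 FPKM in EGFP (SD, n = 2), 2.33 ± 0.210 with CCNY-WT and 1.07 ± 0.0665 in CCNY-shRNA. Single libraries read 2.76 and 2.47 FPKM with EGFP, 2.18 and 2.48 with CCNY-WT, and 1.02 and 1.11 with CCNY-shRNA. These values correspond to 43 and 42 fragments in EGFP, 45 and 36 with CCNY-WT, and 13 and 20 with CCNY-shRNA. Both CCNY-shRNA libraries were below all 4 others, also as raw fragment numbers, even though CCNY-shRNA replicate 2 was deeper than both EGFP libraries. Summed over the libraries of a group there were 85 fragments in EGFP (exact Poisson 95% interval 67.9 to 105), 81 with CCNY-WT (64.3 to 101) and 33 with CCNY-shRNA (22.7 to 46.3). These intervals cover counting error only. Per unit of depth the CCNY-shRNA sum was 0.412 of the EGFP sum, and the log2 change was -1.29 (SE, standard error, 0.193, limma adjusted p = 0.0425). The limma call was lost with log2(FPKM + 1) in place of the floor (adjusted p = 0.0636, log2 change -0.81), with only the 4 libraries compared (0.172), without a trend (0.0899), without a filter (0.108), with log2(FPKM + 0.1) (0.0652) and with the replicate number as a block (0.0622). It was also lost whichever of the 6 libraries was left out, controls and CCNY-WT included, with adjusted p-values of 0.0955 to 0.316 and log2 changes of -1.37 to -1.21. The direct difference between CCNY-shRNA and CCNY-WT was -1.12 (limma adjusted p = 0.0918).

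Itgbl1 had the smallest p of the members. Its values were 59.5 and 66.9 FPKM in EGFP, 56.9 and 54.0 with CCNY-WT, and 40.1 and 42.8 with CCNY-shRNA. The CCNY-shRNA libraries were the lowest and did not overlap those of either other group, and the CCNY-WT libraries lay between. The change in CCNY-shRNA was 0.657 times the EGFP level (log2 change -0.61 with SE 0.0753, limma adjusted p = 0.0231). The limma call was lost with only the 4 libraries compared (adjusted p = 0.172) and without a trend or without a filter (0.143 each). Leaving out any of the 6 libraries also lost it, with adjusted p-values of 0.0897 to 0.316 and log2 changes of -0.69 to -0.52. The difference from CCNY-WT was -0.42 (limma adjusted p = 0.108) and did not pass. The summed astrocyte markers given above were lowest in CCNY-shRNA replicate 1, and the median log2 change of the 7 markers in CCNY-shRNA was -0.13 with 0 of them called. Oligodendrocyte lineage markers summed to 44.5 and 44.2 with EGFP and to 40.3 and 37.2 with CCNY-shRNA, and choroid plexus markers to 37.4 and 29.9 against 32.4 and 17.4, with 0 called in either list. The part of these cell types in the changes of Itgb8 and Itgbl1 was not tested.

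**Figure D3:**
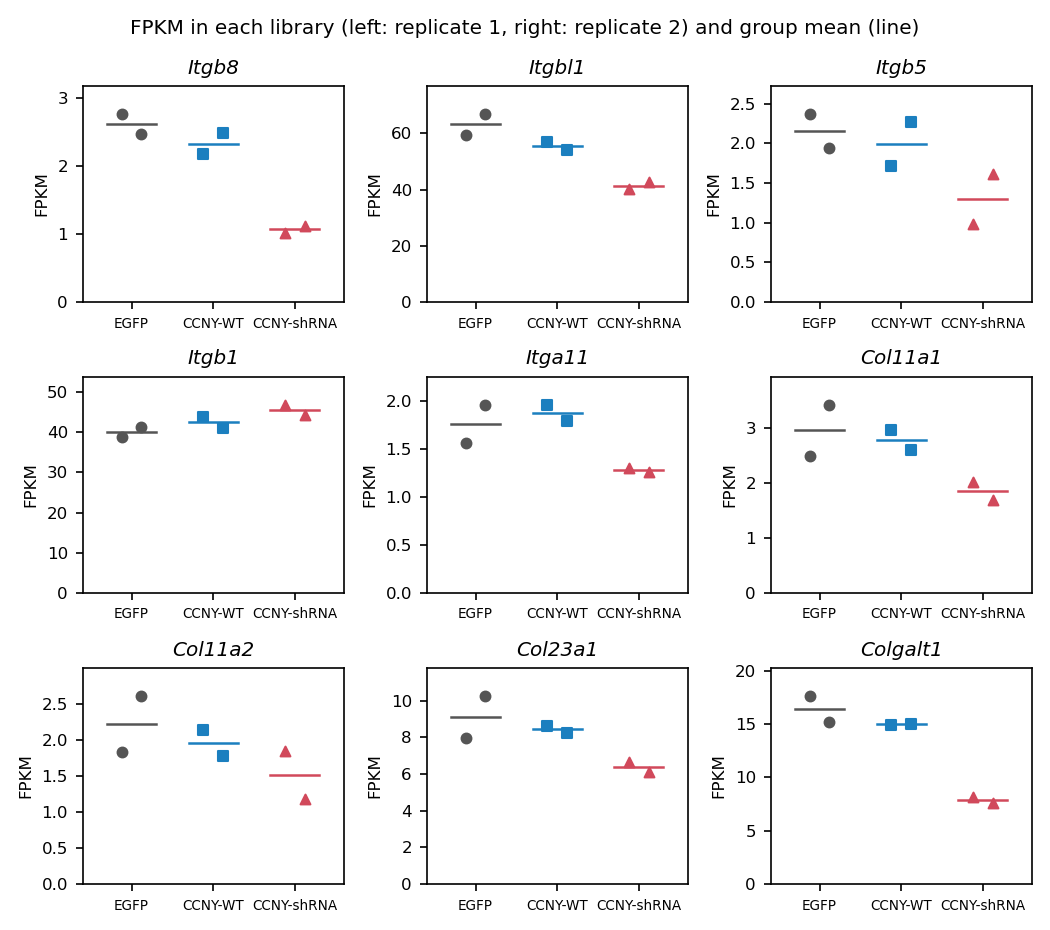
FPKM of 8 members and of Colgalt1 in each library, with the group mean as a line and each axis starting at 0. For Itgb8, Itgbl1 and Colgalt1 both CCNY-shRNA libraries lie well below the others, while the replicates of Itgb5, Col11a1 and Col11a2 are spread widely.

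No other integrin beta chain passed the test. Itgb5, which pairs with alpha-v in a vitronectin receptor, was 2.37 and 1.94 FPKM in EGFP, 1.71 and 2.27 with CCNY-WT, and 0.986 and 1.62 with CCNY-shRNA. These are 47 and 42, 45 and 42, and 16 and 37 fragments, so the CCNY-shRNA libraries differed from each other more than the EGFP libraries did. The log2 change was -0.75 with a standard error of 0.283 (limma adjusted p = 0.211). Itgb1 stood at 38.7 and 41.4 with EGFP, 43.8 and 41.1 with CCNY-WT, and 46.8 and 44.4 with CCNY-shRNA. Its CCNY-shRNA libraries were the highest of all, at 1.14 times the EGFP level (log2 change 0.19 with SE 0.0690, limma adjusted p = 0.206). Itgb4, the partner of alpha6 in epithelial hemidesmosomes, lay between 0.155 and 0.403, with 6 to 15 fragments per library. Itgb2, the beta chain of leukocyte integrins, had 2 to 7 fragments. Itgb6 and Itgb7 were above 0 in 1 library each.

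Among the alpha chains Itga6 was the steadiest, with values from 24.0 to 26.01 FPKM over all 6 libraries and a log2 change of 0.09 in CCNY-shRNA (SE 0.0703, limma adjusted p = 0.541). Itga11, a collagen receptor chain that pairs with Itgb1, was 1.56 and 1.95 with EGFP, 1.95 and 1.79 with CCNY-WT, and 1.301 and 1.26 with CCNY-shRNA. The CCNY-shRNA libraries were the lowest, but the log2 change of -0.45 had a standard error of 0.206 (limma adjusted p = 0.299). Itga8, which with Itgb1 binds nephronectin and fibronectin, ranged from 1.80 to 2.37 with overlapping groups. Itga7, a laminin receptor chain, and Itga4, a receptor chain for fibronectin and VCAM-1, had log2 changes of 0.09 and -0.10 in CCNY-shRNA, with standard errors of 0.223 and 0.214. Itga4 reached 1 FPKM only in EGFP replicate 1 (1.18) and CCNY-shRNA replicate 2 (1.02). Its other values were set to 1, so its log2 change rests on values next to the floor. The untested chains Itga1, Itga5 and Itga10 had 1 to 20 fragments per library. Of these Itga1, a collagen receptor chain, had 1 and 3 fragments in EGFP, 4 and 3 with CCNY-WT, and 4 and 8 with CCNY-shRNA. It is mentioned after its values were seen.

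No collagen passed the adjusted threshold. The lowest p in CCNY-shRNA belonged to Col23a1, a membrane-spanning collagen, which was 7.96 and 10.2 FPKM in EGFP, 8.63 and 8.25 with CCNY-WT, and 6.67 and 6.10 with CCNY-shRNA. Its CCNY-shRNA libraries lay below all others (log2 change -0.50 with SE 0.153, limma adjusted p = 0.150). Col11a1 and Col11a2 are chains of type XI collagen, which nucleates thin fibrils. Col11a1 was 2.50 and 3.41 with EGFP, 2.96 and 2.603 with CCNY-WT, and 2.02 and 1.68 with CCNY-shRNA, again with the CCNY-shRNA libraries lowest (log2 change -0.66 with SE 0.219, limma adjusted p = 0.171). Col11a2 overlapped between groups, at 1.83 and 2.603 with EGFP, 2.14 and 1.77 with CCNY-WT, and 1.84 and 1.18 with CCNY-shRNA (-0.56 with SE 0.284, limma adjusted p = 0.332). The more abundant type V chains had smaller log2 changes. Col5a2 was 13.8 and 14.0 with EGFP, 14.2 and 14.7 with CCNY-WT, and 12.5 and 12.2 with CCNY-shRNA, a log2 change of -0.17 (SE 0.0934, limma adjusted p = 0.381), and that of Col5a1 was -0.12 (SE 0.137). Col4a1, the network chain of basement membranes, was 12.04 and 13.1 with EGFP and 12.9 and 9.45 with CCNY-shRNA, so that the groups overlapped.

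**Figure D4:**
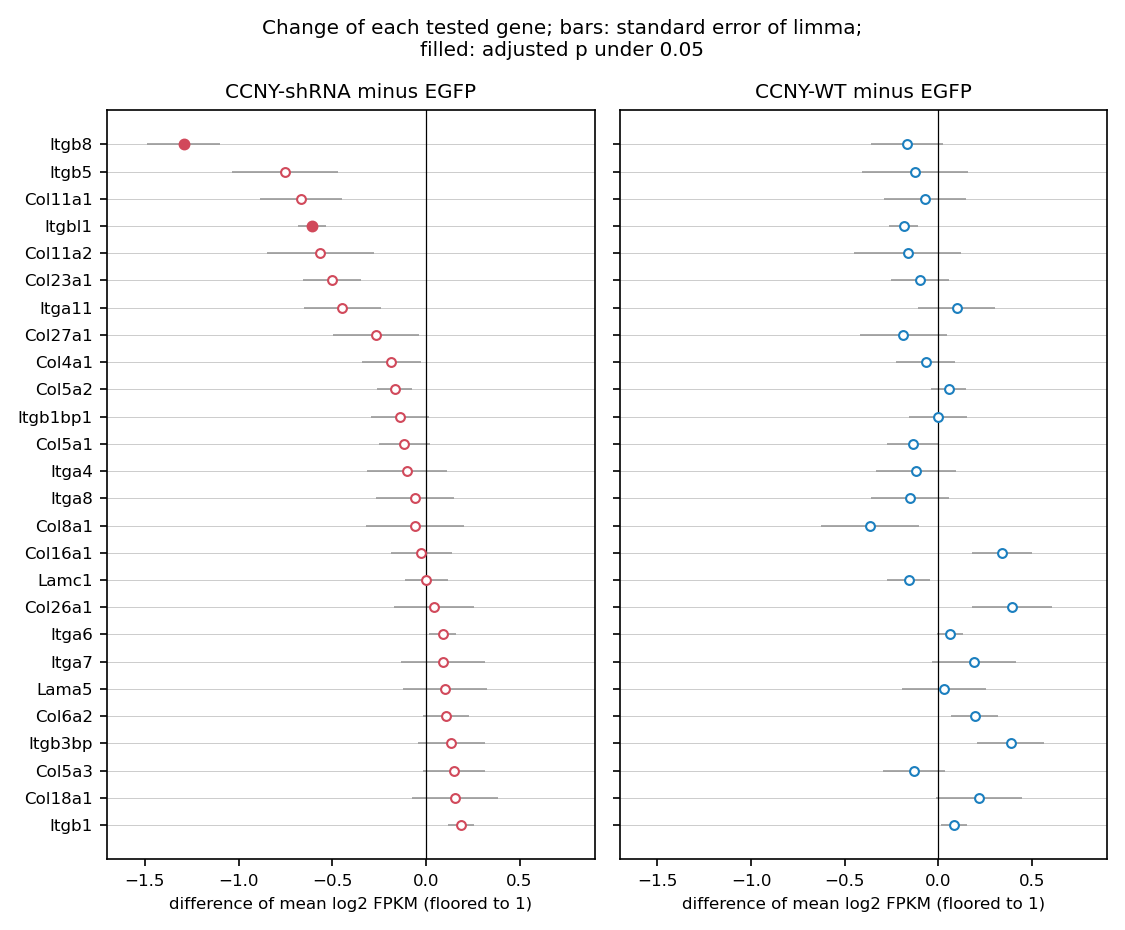
Difference of mean log2 FPKM from EGFP for the 26 tested genes in CCNY-shRNA (left) and CCNY-WT (right), with the standard error of limma as bars and filled points for an adjusted p under 0.05. Only Itgb8 and Itgbl1 are filled, and only in the left panel; the 2 panels share the EGFP libraries, and whether the conditions differ was tested in the direct contrast, which neither gene passed.

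The 6 tested chains among 10 fibrillar collagen chains had a median log2 change of -0.22 in CCNY-shRNA. The tested beaded-filament chain Col6a2 and multiplexin chain Col18a1 had log2 changes of 0.11 and 0.15. Col6a4, not tested because it reached 1 FPKM in only 1 library, was 0.813 and 1.12 with EGFP, 0.736 and 0.610 with CCNY-WT, and 0.364 and 0.565 with CCNY-shRNA. This is 75 fragments in EGFP (exact Poisson 95% interval 59.0 to 94.0), 57 with CCNY-WT (43.2 to 73.9) and 35 with CCNY-shRNA (24.4 to 48.7). It was singled out after its values were seen.

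No laminin chain passed the test in any contrast. Lamc1 was 11.8 and 11.3 FPKM in EGFP, 10.4 and 10.2 with CCNY-WT, and 12.3 and 10.8 with CCNY-shRNA, with log2 changes of 0.00 in CCNY-shRNA (SE 0.114) and -0.16 in CCNY-WT (limma adjusted p = 0.829). Its CCNY-WT libraries were the lowest and did not overlap those of EGFP. Lama5 had a log2 change of 0.10 in CCNY-shRNA (SE 0.226). Lama1 ranged from 0.739 to 1.14, with 40 to 82 fragments per library and all groups overlapping.

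In CCNY-WT 0 of the 26 tested members passed limma's adjusted threshold, against 0.00982% of all genes, which is Ccny alone. The unadjusted p was under 0.05 for 1 member, Itgbl1, which was lower (3.85%, against 3.00% of all genes), and for no higher member, against 3.83%. Itgbl1 had a log2 change of -0.19 (SE 0.0753, limma adjusted p = 0.725). Of the members 11 had a log2 change above 0 (42.3%, against 51.3% of all genes) and 15 below 0 (57.7%, against 48.6%), with a median of -0.07. By the size criterion of 0.3, Col16a1, Col26a1 and Itgb3bp were higher (3 of 26, 11.5%, against 4.59% of all genes) and Col8a1 was lower (3.85%, against 3.76%). Both CCNY-WT libraries lay above both EGFP libraries for 6 members (23.1%, against 20.3% of all genes) and below them for 4 (15.4%, against 19.2%). Itgb3bp, which also binds at kinetochores, was 4.53 and 3.97 with EGFP, 5.82 and 5.29 with CCNY-WT, and 4.10 and 5.29 with CCNY-shRNA. Its log2 change in CCNY-WT was 0.39 (SE 0.179, limma adjusted p = 0.740). Col16a1, a collagen that associates with fibrils, was 3.09 and 3.47 with EGFP, 4.23 and 4.06 with CCNY-WT, and 3.33 and 3.11 with CCNY-shRNA (0.34 with SE 0.162, limma adjusted p = 0.760). Col26a1 was 2.51 and 3.37 with EGFP and 3.80 and 3.85 with CCNY-WT, and Col8a1, a short-chain network collagen, was 1.72 and 1.09 against 1.01 and 1.12. For both genes the EGFP libraries were farther apart than the CCNY-WT libraries.

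Set directly against CCNY-WT, CCNY-shRNA gave 0 calls among the 26 members, against 0.216% of all genes (0.0196% higher and 0.196% lower). At an unadjusted p under 0.05, 6 members were lower (23.1%, against 7.12% of all genes) and 0 higher (against 5.05%). The log2 change was below 0 for 17 members (65.4%, against 49.5% of all genes) and above 0 for 9 (34.6%, against 50.4%). All 6, namely Itgb8, Itgbl1, Col11a1, Col23a1, Col5a2 and Itga11, were lower in both CCNY-shRNA libraries than in both CCNY-WT libraries, which held for 10 of the 26 members and 21.9% of all genes.

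Around these genes, 6 lists of matrix and adhesion genes were examined, also chosen with earlier results of these data known. Of all genes tested 0.579% fell in CCNY-shRNA and 0.167% rose, and 0.196% were lower in the direct contrast with CCNY-WT. Among 15 tested genes of collagen synthesis and crosslinking 1 fell in CCNY-shRNA and 0 rose. This was Colgalt1, the enzyme that attaches galactose to hydroxylysine of collagens, at 17.6 and 15.2 FPKM in EGFP, 14.9 and 15.0 with CCNY-WT, and 8.17 and 7.60 with CCNY-shRNA. The CCNY-shRNA libraries of Colgalt1 were below the other 4 (log2 change -1.05 with SE 0.113, limma adjusted p = 0.0148), and the difference from CCNY-WT passed as well (-0.92, limma adjusted p = 0.0311). Among 12 tested matrix proteases and inhibitors Adam10, a sheddase of membrane proteins, read 52.3 and 52.2 with EGFP, 55.3 and 48.9 with CCNY-WT, and 35.4 and 33.8 with CCNY-shRNA (log2 change -0.60 with SE 0.0742, limma adjusted p = 0.0231). Adam10 fell in both libraries and also passed against CCNY-WT (-0.59, limma adjusted p = 0.0330). These 2 calls against CCNY-WT were not followed through the alternatives. Over all genes the 22 calls of that contrast became 1 without a trend, 1 with only the 4 libraries compared and 2 without a filter. Both calls against EGFP were lost with only the 4 libraries compared (limma adjusted p = 0.139 for Colgalt1 and 0.117 for Adam10), without a filter (0.121 and 0.140) and without a trend (0.0920 and 0.143). Leaving out any of the 6 libraries also lost both, with adjusted p-values of 0.0767 to 0.207 for Colgalt1, at log2 changes of -1.16 to -0.95, and 0.0847 to 0.316 for Adam10, at -0.63 to -0.56.

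No gene passed among the 29 tested of the integrin adhesion machinery (talins, kindlins, focal adhesion kinase and their partners), where in CCNY-shRNA 3 genes were higher and 0 lower by an unadjusted p under 0.05, against 9.2% and 9.36% of all genes, with a median log2 change of 0.03. Likewise 0 passed among 13 basement membrane and interstitial matrix proteins, 13 other receptors for collagen and laminin and 4 genes of latent TGF-beta, with medians of -0.13, -0.07 and -0.10 against 0 over all genes. By the same unadjusted criterion, which 9.36% of all genes met as lower and 9.2% as higher, 3 of 13 matrix proteins, 2 of 13 other receptors, 3 of 15 genes of collagen synthesis and 3 of 12 proteases and inhibitors were lower. None of these lists had a higher gene, and none of the 4 TGF-beta genes met it. In CCNY-WT no gene of the 6 lists passed, and at an unadjusted p under 0.05 there were 5 higher and 3 lower genes over the 6 lists, where 3.83% of all genes were higher and 3.00% lower.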

How the data were processed

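Per the labels and the methods of the study, the authors mapped reads to rn4 with TopHat2 (processing notes: TopHat2 2.0, Bowtie2 2.1.0, SAMtools 0.1.19) and computed expression with Cufflinks 2.2.1. The authors deposited 1 FPKM value per gene and library. Which annotation was used, and whether libraries were scaled to each other, is not given in the sources used here.

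Values below 1 FPKM were set to 1 before taking log2. Differences were tested with limma 3.58.1 in R 4.3.3 (lmFit, contrasts.fit, eBayes with trend) in a model of all 6 libraries. It covered the 10188 genes that reached 1 FPKM in 2 libraries or more, with Benjamini-Hochberg adjustment over all of them and a threshold of 0.05. In simulated data for CCNY-shRNA against EGFP, 200 of 10188 genes were changed. With changes of 1 on the log2 scale 90% were recovered, and with changes of 0.6 78.5%, with 13 false calls each. The simulated noise was normal, and its spread followed a smooth trend with level, without further spread between genes. Measured genes need not follow this, so recovery in these data may be lower. Relative depth and fragment numbers were derived from the steps of low FPKM values, a procedure also tested on simulated data. Tables were handled with Python 3.11.15 and pandas 2.3.3.

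The members and lists were chosen with earlier results of these data known. Members were named if they passed the threshold, were among the 10 smallest p-values against EGFP or the 3 highest of a family, were listed by the study, or were partner chains. Several other members named above, among them Itga4, Itga7, Col5a3, Col3a1 and Itgb2, were outside these criteria. Genes of the lists were named if they passed. Alternatives covered the log offset, filter, scaling, spread, samples in the fit, replicate block and each left-out library. Promoter sequences are from RefSeq (GRCr8). Depth in reads is unknown for genes without whole fragment numbers. The values of 1 further member are not reported here, while counts over the members include it.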

Additional observations from a re-analysis of the deposited data

How the results depend on the processing

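The count of 2 members called in CCNY-shRNA was 1 (Itgbl1) with log2(FPKM + 1), with log2(FPKM + 0.1) and with the replicate block, and 0 without a filter, without a trend and with only the 4 libraries compared, and leaving out each library in turn it was 0 throughout. Filtering on a mean FPKM of 1, upper-quartile scaling and quantile normalization kept 2. Counts of 0 among the members in the other contrasts were 0 under every alternative. Over all genes tested, the 76 calls in CCNY-shRNA became 1 without a trend and 1 with only the 4 libraries compared. Without a filter 2 of 13483 genes were called, so these 3 losses were not particular to the members. Leaving out a library leaves 1 library in a group, and most of the 76 calls over all genes were then lost too. The loss with a library left out was therefore not particular to the genes named here. With log2(FPKM + 1) and log2(FPKM + 0.1) 82 and 85 genes were called. Over all 54 members, those higher by the size criterion in CCNY-WT numbered 1 with log2(FPKM + 1) and 12 with log2(FPKM + 0.1), and 2 to 5 with a library left out, against 3. Those lower numbered 8 with log2(FPKM + 0.1) and 1 to 2 with a library left out, against 1. In CCNY-shRNA log2(FPKM + 0.1) gave 3 higher and 11 lower, and leaving out a library 0 higher and 5 to 9 lower. Shares over all genes were not computed for these alternatives of the size criterion. The counts also cover the 25 members under 1 FPKM in every library, so they cannot be set against the shares given above. The median log2 change became 0 in both conditions without a filter, where most members sit at the floor, and -0.047 in CCNY-shRNA with quantile normalization. With a library left out it ranged from -0.071 to 0.070 in CCNY-WT and from -0.131 to -0.046 in CCNY-shRNA. Of 630 recomputed changes of the 21 named and tested members 29 changed sign, all for log2 changes of at most 0.18 in size that passed no threshold. The cause of these shifts was not tested.

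The replicate numbers are shared between groups, but the labels do not tie them to a culture or day. Deviations of same-numbered libraries correlated over the 10188 genes at 0.0530 for EGFP and CCNY-WT, 0.0377 for EGFP and CCNY-shRNA, and 0.0538 for CCNY-WT and CCNY-shRNA. Over the 8055 genes with a mean FPKM above 5 the values were 0.144, -0.029 and 0.137. Not every pair exceeded 0.1, so the numbers were not taken as pairs. With the replicate block 39 genes in place of 76 were called in CCNY-shRNA, Itgb8 had an adjusted p of 0.0622, and Itgbl1, Colgalt1 and Adam10 passed. Depth limits the 22 members with at most 21 fragments per library.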
